A study of Mus musculus with 8 samples.

Results

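The insulin-like growth factor (IGF) ligands, receptors and binding proteins examined here were 10 of the 27179 genes counted by RNA-seq in neonatal cardiomyocytes (NCMs). They were taken by gene symbol, as Igf1, Igf2, Igf1r, Igf2r and Igfbp2 to Igfbp7, and matched to the counts by Entrez number. NCMs were isolated from male C57Bl/6 J offspring on postnatal day 0, after the dams had breathed filtered air (FA) or diesel exhaust (DE) from E0.5 until late gestation. Each of the 4 FA libraries (replicates 2, 3, 4 and 6) and 4 DE libraries (replicates 1, 3, 5 and 7) was made from the cells of 1 heart. All groups were untreated apart from the air the dams breathed, and no transgene or cell line was used. Cells were kept in medium with Ara-C for a short plating step in which fibroblasts attach to the dish, and the cells left in suspension were collected. The methods give fewer animals per group than the 4 libraries deposited and do not say which were meant, so all 8 were used. The dam or litter of each pup was not given in the sources used here, so the p-values measure the spread between these libraries. The names of all FA libraries and of DE replicates 1 and 7 carry the prefix 11, and those of DE replicates 3 and 5 carry 12, with no meaning stated.

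IGF1 and IGF2 are secreted ligands that drive growth of the fetus and of the embryonic heart by activating the IGF1 receptor, a tyrosine kinase. The IGF2 receptor binds IGF2 and carries it to the lysosome, and the binding proteins hold the ligands in the extracellular space and set how much of them reaches a receptor. Igf2 and Igf2r are imprinted in the mouse, with Igf2 expressed from the paternal copy and Igf2r from the maternal copy in most tissues.

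Libraries held 17943024 to 39839737 counts, and 14966 genes had enough counts to be tested. Cardiomyocyte markers were abundant, with 10 markers summing to between 72154 and 78095 CPM, counts scaled to a common library size, in FA and between 62936 and 73852.5 CPM in DE. RNA of other cell types was also present, and its values stand beside the results with which they moved. In bulk RNA, fewer cells of a type and less RNA per cell cannot be told apart.

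All 10 IGF genes passed the filter, and 3 of them, Igf2, Igfbp3 and Igfbp4, rose in DE. A gene was called when edgeR's quasi-likelihood test gave a p-value of at most 0.05 after Benjamini-Hochberg adjustment together with a difference of at least 25%. Over all tested genes the share called was 5.8%, and the share called as higher in DE was 3.58%. The remaining 7 did not pass, among them both receptors, Igf1 and 4 of the 6 binding proteins. The same 3 genes had CPM values that did not overlap between the groups and were higher in DE, which held for 7.43% of all tested genes. The median log2 fold change of the 10 was 0.17, with 5 values above 0 and 5 below, beside a median of 0.0037 for all tested genes. At an unadjusted p under 0.05, 7 of the 10 differed, against 25.6% of all tested genes.

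**Figure D1:**
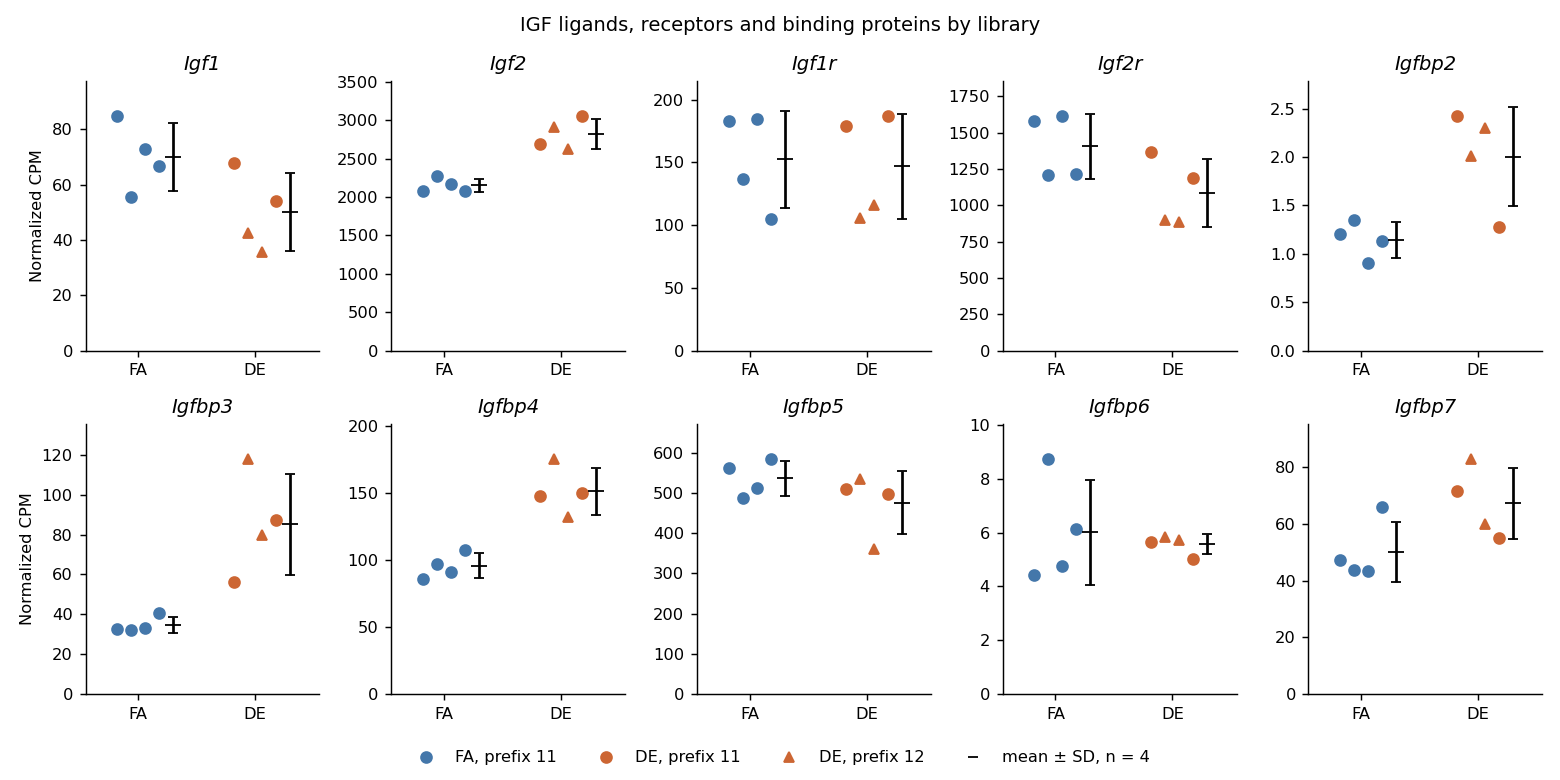
Each panel plots the normalized CPM of 1 IGF gene in the 4 FA and 4 DE libraries, with a point per library marked by name prefix and a bar with whiskers for the mean and SD. The groups are apart for Igf2, Igfbp3 and Igfbp4 and overlap for the other 7.

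Because CPM grows with transcript length, levels of different genes were compared as CPM per kilobase of exon. In FA libraries the order began with Igf2 at 375.6 ± 15.8, Igf2r at 150.9 ± 23.9 and Igfbp5 at 89.4 ± 7.37 CPM per kilobase (SD, n = 4). Igfbp7 followed at 41.4 ± 8.85 and Igfbp4 at 21.6 ± 2.09 CPM per kilobase, each apart from its neighbours. Igfbp3 (11.0 ± 1.30), Igf1r (9.07 ± 2.29), Igf1 (7.07 ± 1.23) and Igfbp6 (5.40 ± 1.76) formed a run in which each overlapped the next. Igfbp2 was lowest at 0.620 ± 0.100 CPM per kilobase. The order of the means was the same in DE libraries. There Igfbp5 (79.3 ± 13.0) overlapped Igfbp7 (55.6 ± 10.3), and Igfbp4 (34.3 ± 4.00) overlapped Igfbp3 (27.2 ± 8.12 CPM per kilobase). In CPM, Igf2 stood at the 99.8th percentile of tested genes in FA, Igf2r at the 99.6th, Igfbp3 at the 65.4th and Igfbp2 at the 12.7th.

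Igf2, the main fetal ligand (Entrez gene 16002, GRCm38.p6 chromosome 7 from 142650768 to 142666816, minus strand), rose in DE by 1.31-fold. It measured 2079, 2269, 2169 and 2081 CPM in FA replicates 2, 3, 4 and 6, and 2685, 2916, 2622 and 3050.5 CPM in DE replicates 1, 3, 5 and 7. Every DE library was above every FA library. The mean went from 2149 ± 90.3 to 2818 ± 199.8 CPM (SD, n = 4 each), which is a log2 fold change of 0.39 with a standard error of 0.09 (adjusted p = 0.0345, edgeR quasi-likelihood, Benjamini-Hochberg adjusted). The direction was the same in all 8 fits that left out 1 library, but the call was lost in 6 of them, with adjusted p-values of 0.112 without FA replicate 2, 0.112 without FA replicate 4, 0.104 without DE replicate 3, 0.0678 without DE replicate 7, 0.0640 without FA replicate 6 and 0.0559 without FA replicate 3. It was kept without DE replicate 1 or DE replicate 5. The call was also lost when the name prefix was a term in the fit (adjusted p = 0.0783) and among the prefix 11 libraries alone (adjusted p = 0.115). The log2 fold change did not shrink there, at 0.42 and 0.41. With the 25% difference built into the test itself the call was lost too (adjusted p = 0.640). An antisense gene, Igf2os, overlaps Igf2 and had between 0.438% and 0.586% as many counts as Igf2, and the strand setting of the counting was not given in the sources used here.

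Igf1, the ligand that growth hormone controls after birth (Entrez gene 16000, chromosome 10 from 87858265 to 87937047), was far less abundant. It measured 84.8, 55.5, 73.0 and 66.9 CPM in FA replicates 2, 3, 4 and 6, and 68.0, 42.4, 35.7 and 54.0 CPM in DE replicates 1, 3, 5 and 7. The groups overlapped because DE replicate 1 lay above FA replicates 3 and 6, and the 2 lowest values were the prefix 12 libraries, DE replicates 3 and 5. The difference from 70.0 ± 12.2 to 50.0 ± 14.1 CPM (SD, n = 4 each), which is a log2 fold change of -0.49 with a standard error of 0.19, did not pass the test (adjusted p = 0.142, edgeR quasi-likelihood, Benjamini-Hochberg adjusted). Without DE replicate 1 it passed, at -0.67 and an adjusted p of 0.0392. With the prefix as a term it was smaller, at -0.20 (adjusted p = 0.583), and it was also -0.20 among prefix 11 libraries alone (adjusted p = 0.609). The ratio of Igf2 to Igf1, each in CPM per kilobase, ran from 42.4 to 70.8 in FA and from 68.4 to 127.0 in DE libraries, and is given as a description without a test.

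Neither receptor was called. Igf1r, the signalling receptor (Entrez gene 16001, chromosome 7 from 67952257 to 68233668), measured 182.7, 136.9, 184.7 and 105.1 CPM in FA replicates 2, 3, 4 and 6, and 178.6, 105.6, 116.4 and 186.7 CPM in DE replicates 1, 3, 5 and 7. Both groups held high and low libraries, and the spread within each was larger than the distance between the means of 152.4 ± 38.5 and 146.8 ± 41.7 CPM (SD, n = 4 each). The log2 fold change was -0.05 with a standard error of 0.22 (adjusted p = 0.898, edgeR quasi-likelihood, Benjamini-Hochberg adjusted), and its sign changed under 8 of the 21 other ways of processing the counts.

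Igf2r, the receptor that clears IGF2 (Entrez gene 16004, chromosome 17 from 12682406 to 12769706), was the second most abundant of the 10 per kilobase. It measured 1581, 1210.1, 1612 and 1214 CPM in FA replicates 2, 3, 4 and 6, and 1363, 897.5, 885.4 and 1188 CPM in DE replicates 1, 3, 5 and 7. DE replicate 1 lay among the FA libraries, and the other DE libraries lay below all of them. Means were 1404 ± 222.4 and 1083 ± 232.9 CPM (SD, n = 4 each), and the log2 fold change of -0.37 with a standard error of 0.16 did not pass the test (adjusted p = 0.173, edgeR quasi-likelihood, Benjamini-Hochberg adjusted). It stayed below 0 in all 21 alternatives, between -0.51 and -0.14, and passed in none. The values nearest 0 were -0.14 with the prefix as a term and -0.14 among prefix 11 libraries alone. Airn, an antisense RNA that overlaps Igf2r, had between 1.38% and 1.94% as many counts.

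Igf1, Igf1r and Igf2r have the longest exonic sequences of the 10, at 9904, 16791 and 9308 bases, and long transcripts as a class varied between these libraries. The 1837 tested genes of 9000 bases or more had median log2 CPM, centred on each gene's own mean, of 0.24 in FA replicate 2 and 0.21 in FA replicate 4. The same median was -0.21 in DE replicate 3 and -0.24 in DE replicate 5, and lay between -0.08 and 0.07 in the other libraries. Over the groups, those long genes had a median log2 fold change of -0.16, with 57 of them (3.1%) called lower in DE beside 2.22% of all tested genes. Only 20 of the 1837 were called higher in DE, beside 3.58% of all tested genes. With offsets that take out each library's trend with length, an alternative added after the data were seen, Igf1 stood at -0.37 (adjusted p = 0.0732), Igf2r at -0.27 (adjusted p = 0.0960) and Igf1r at 0.16 (adjusted p = 0.463, edgeR quasi-likelihood, Benjamini-Hochberg adjusted). The calls of Igf2, Igfbp3 and Igfbp4 held with these offsets, at 0.40, 1.23 and 0.64 on the log2 scale.

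The binding proteins included the largest difference among the 10 genes. Igfbp3 and Igfbp4 rose in DE, while Igfbp2, Igfbp5, Igfbp6 and Igfbp7 did not pass the test, and the 6 had a median log2 fold change of 0.54. The promoter sequences of the 2 genes that rose are shown so that the regions next to their starts can be read beside the values. Both come from RefSeq on GRCm38.p6 and hold the 250 bases before the annotated start, 5′ to 3′ on the strand of the gene, as chr11:7213924-7214173 on the minus strand for Igfbp3 and chr11:99040994-99041243 on the plus strand for Igfbp4. Capitals mark matches to the motifs searched.
Igfbp3: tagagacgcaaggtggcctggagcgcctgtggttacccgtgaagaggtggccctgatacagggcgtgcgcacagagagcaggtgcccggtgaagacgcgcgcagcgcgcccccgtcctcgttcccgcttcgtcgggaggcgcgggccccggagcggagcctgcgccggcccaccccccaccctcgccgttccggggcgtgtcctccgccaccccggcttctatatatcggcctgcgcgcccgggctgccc
Igfbp4: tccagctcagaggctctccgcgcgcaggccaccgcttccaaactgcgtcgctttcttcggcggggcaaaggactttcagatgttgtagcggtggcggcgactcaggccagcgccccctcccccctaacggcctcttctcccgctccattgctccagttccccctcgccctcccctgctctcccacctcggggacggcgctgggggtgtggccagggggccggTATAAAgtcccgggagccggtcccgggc
Motifs were searched on both strands. The TATA box TATAAA occurs in 12.4% of all 32851 promoters of this length, the GC box GGGCGG in 32.7%, the CCAAT box in 33.8% and the E-box CACGTG in 6.02%. Igfbp4 had 1 match, to TATAAA, and Igfbp3 had none. Only exact matches were counted, so variants such as the stretch tatatat near the 3′ end of the Igfbp3 window were not marked. The search therefore does not show that Igfbp3 lacks a TATA box. Both windows were rich in G and C, at 73.2% for Igfbp3 with 32 CpG sites and 69.2% for Igfbp4 with 22, beside a median over all promoters of 52.4% and 6 CpG sites. Neither window overlapped an exon of GENCODE, but both lie inside the RefSeq span of their gene, which begins further upstream. Overlap with exons of RefSeq transcripts that begin there was not checked. Counts per gene do not show which start was used.

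Igfbp3, which carries most IGF in the blood and can also be secreted locally (Entrez gene 16009, chromosome 11 from 7206086 to 7215498, minus strand), rose by 2.47-fold. It measured 32.7, 31.99, 33.0 and 40.6 CPM in FA replicates 2, 3, 4 and 6, and 56.2, 117.8, 79.6 and 87.3 CPM in DE replicates 1, 3, 5 and 7. The lowest DE library was above the highest FA library, and the DE libraries were spread more widely. The mean went from 34.6 ± 4.05 to 85.2 ± 25.4 CPM (SD, n = 4 each), which is a log2 fold change of 1.30 with a standard error of 0.19 (adjusted p = 0.00401, edgeR quasi-likelihood, Benjamini-Hochberg adjusted). The call held in each of the 21 alternatives, with log2 fold changes from 1.05 to 1.46. The lowest value came from the fits by name prefix, at 1.05 with the prefix as a term (adjusted p = 0.0132) and at 1.05 among prefix 11 libraries alone (adjusted p = 0.0143).

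Igfbp4, which binds IGF until the protease PAPP-A cleaves it (Entrez gene 16010, chromosome 11 from 99040005 to 99052655), rose by 1.58-fold. It measured 86.0, 97.3, 91.3 and 107.55 CPM in FA replicates 2, 3, 4 and 6, and 147.5, 174.958, 132.3 and 150.2 CPM in DE replicates 1, 3, 5 and 7. The groups did not overlap, and the DE libraries of the 2 prefixes overlapped. Means were 95.5 ± 9.24 and 151.2 ± 17.7 CPM (SD, n = 4 each), with a log2 fold change of 0.66 and a standard error of 0.11 (adjusted p = 0.00946, edgeR quasi-likelihood, Benjamini-Hochberg adjusted). The call held in 20 of the 21 alternatives and was lost when the 25% difference was built into the test itself (adjusted p = 0.0889).

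Fibroblast markers moved with Igfbp3 and Igfbp4, and also with Igf2 and H19, which rose in DE without overlap too. The 10 fibroblast markers were all higher in DE by their fold change, with a median of 0.66 on the log2 scale. The smallest values were those of Tcf21 (0.28) and Pdgfra (0.47), which were not called. Of the 10, 3 were called, namely Col1a1 (0.95), Col5a1 (0.78) and Dcn (0.56), beside 3.58% of all tested genes called higher. Col1a1 was called in all 21 alternatives, Col5a1 lost its call in 6 (without FA replicate 3, 4 or 6, without DE replicate 3 or 7, and with the 25% difference built into the test) and Dcn, whose groups overlapped, in 9, of which 6 left out 1 library. Their sum was 3410, 2206, 3208 and 3707 CPM in FA replicates 2, 3, 4 and 6, and 6733, 5130, 3987 and 4984 CPM in DE replicates 1, 3, 5 and 7, so the groups did not overlap. Within DE, replicate 1 had the highest fibroblast sum, the lowest Igfbp3 value and the third highest Igfbp4 value. Replicate 5 had both the lowest fibroblast sum and the lowest Igfbp4 value. The part of fibroblast RNA in the differences of Igf2, Igfbp3, Igfbp4 and H19 was not tested. Of the 10 endothelial markers, 9 were higher in DE and none passed edgeR's quasi-likelihood test (5 had an unadjusted p under 0.05, beside 25.6% of all tested genes). Their sums were 1294 to 1663 CPM in FA and 1433 to 2070 CPM in DE. In DE replicates 1, 3, 5 and 7 the endothelial sums were 1665, 2070, 1433 and 1705 CPM. That is the order of Igfbp4 but not of Igfbp3, and the part of endothelial RNA was not tested. Leukocyte marker sums were small, at 17.9 to 22.9 CPM in FA and 23.5 to 34.9 CPM in DE, and did not overlap. Sums for smooth muscle and pericytes (731.9 to 969.2 and 726.0 to 978.7 CPM) and for the epicardium (168.1 to 199.9 and 161.6 to 188.6 CPM) overlapped. Erythroid sums were 759.4 to 1881 CPM in FA and 1209 to 2022 CPM in DE, with Slc4a1 called (0.95), a call lost in 9 of the 21 alternatives. Of the 10 cardiomyocyte markers 9 were lower in DE, and their summed level had a median of 74386 CPM in FA and 64125 CPM in DE. Among them Myh6 (-0.67) and Pln (-0.38) fell and Myh7 (0.53) rose. The call of Pln was lost in 11 of the 21 alternatives, that of Myh7 in 3 and that of Myh6 in 0. Mean Myh6 went from 23299 to 14622 CPM, and mean Myh7 from 10022 to 14494 CPM. The other 7 were not called. Tnnt2, Tnni3, Myl2 and Myl3 stood between -0.07 and -0.05 on the log2 scale, Actn2 at -0.16, Actc1 at -0.20 and Ryr2 at -0.62. The lower sum therefore does not show that cardiomyocyte RNA fell as a class. No marker of any list was at 0 in all libraries.

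**Figure D2:**
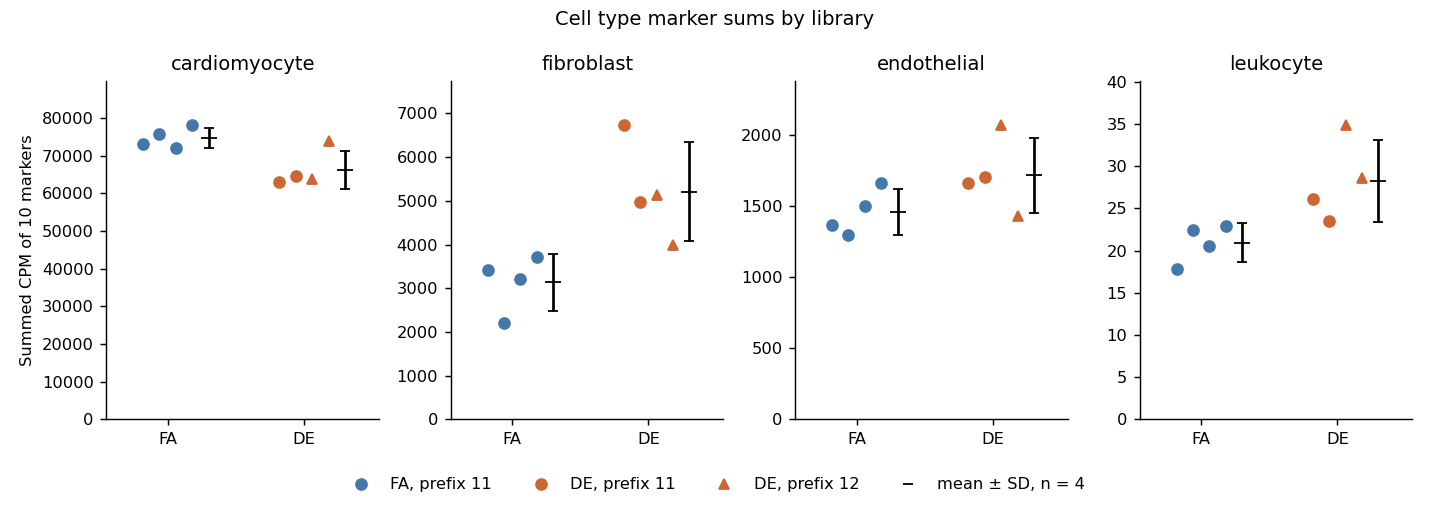
Each panel plots the summed CPM of 10 markers of 1 cell type in the 4 FA and 4 DE libraries, with a point per library marked by name prefix and a bar with whiskers for the mean and SD. Fibroblast and leukocyte sums do not overlap between groups, while endothelial and cardiomyocyte sums do.

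Igfbp5, the most abundant binding protein transcript (Entrez gene 16011, chromosome 1 from 72858065 to 72874865), is a secreted protein that also binds extracellular matrix. It measured 563.0, 487.8, 513.4 and 584.1 CPM in FA replicates 2, 3, 4 and 6, and 511.1, 535.9, 361.2 and 496.7 CPM in DE replicates 1, 3, 5 and 7. DE replicate 5 was lowest and the rest overlapped. Its log2 fold change was -0.17 with a standard error of 0.13 (adjusted p = 0.416, edgeR quasi-likelihood, Benjamini-Hochberg adjusted), and no alternative called it. Without DE replicate 5 it was -0.06 (adjusted p = 0.776), with the prefix as a term -0.09 and among prefix 11 libraries alone -0.10.

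Igfbp7, a secreted protein that binds IGF weakly and is abundant in vessels (Entrez gene 29817, chromosome 5 from 77349240 to 77408045), measured 47.2, 43.7, 43.5 and 65.9 CPM in FA replicates 2, 3, 4 and 6. In DE replicates 1, 3, 5 and 7 it measured 71.5, 82.8, 59.9 and 55.0 CPM. FA replicate 6 lay inside the range of DE, and the other FA libraries lay below it. The log2 fold change of 0.43 with a standard error of 0.16 did not pass (adjusted p = 0.136, edgeR quasi-likelihood, Benjamini-Hochberg adjusted). Without FA replicate 6 it was 0.58 and passed, with an adjusted p of 0.0455, and with the length offsets it was 0.24 (adjusted p = 0.309). Leaving out DE replicate 3, the highest library, gave 0.31 (adjusted p = 0.349).

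Igfbp2, a binding protein of fetal tissues (Entrez gene 16008, chromosome 1 from 72824480 to 72852474), rested on 377 counts over all 8 libraries. It measured 1.20, 1.35, 0.903 and 1.13 CPM in FA replicates 2, 3, 4 and 6, and 2.42, 2.01, 2.29 and 1.28 CPM in DE replicates 1, 3, 5 and 7. DE replicate 7 lay within the FA range and the other DE libraries above it. The log2 fold change of 0.82 with a standard error of 0.23 did not pass (adjusted p = 0.0612, edgeR quasi-likelihood, Benjamini-Hochberg adjusted). It passed in 4 of the 21 alternatives, among them the fit without DE replicate 7 (adjusted p = 0.0345) and DESeq2 (adjusted p = 0.0318).

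Igfbp6, which prefers IGF2 as its ligand (Entrez gene 16012, chromosome 15 from 102144186 to 102149512), was low and showed no separation. It ran from 4.41 to 8.72 CPM in FA and from 5.01 to 5.85 CPM in DE, with a log2 fold change of -0.10 and a standard error of 0.20 (adjusted p = 0.789, edgeR quasi-likelihood, Benjamini-Hochberg adjusted). Without FA replicate 3, the library at 8.72 CPM, the fold change was 0.13.

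**Figure D3:**
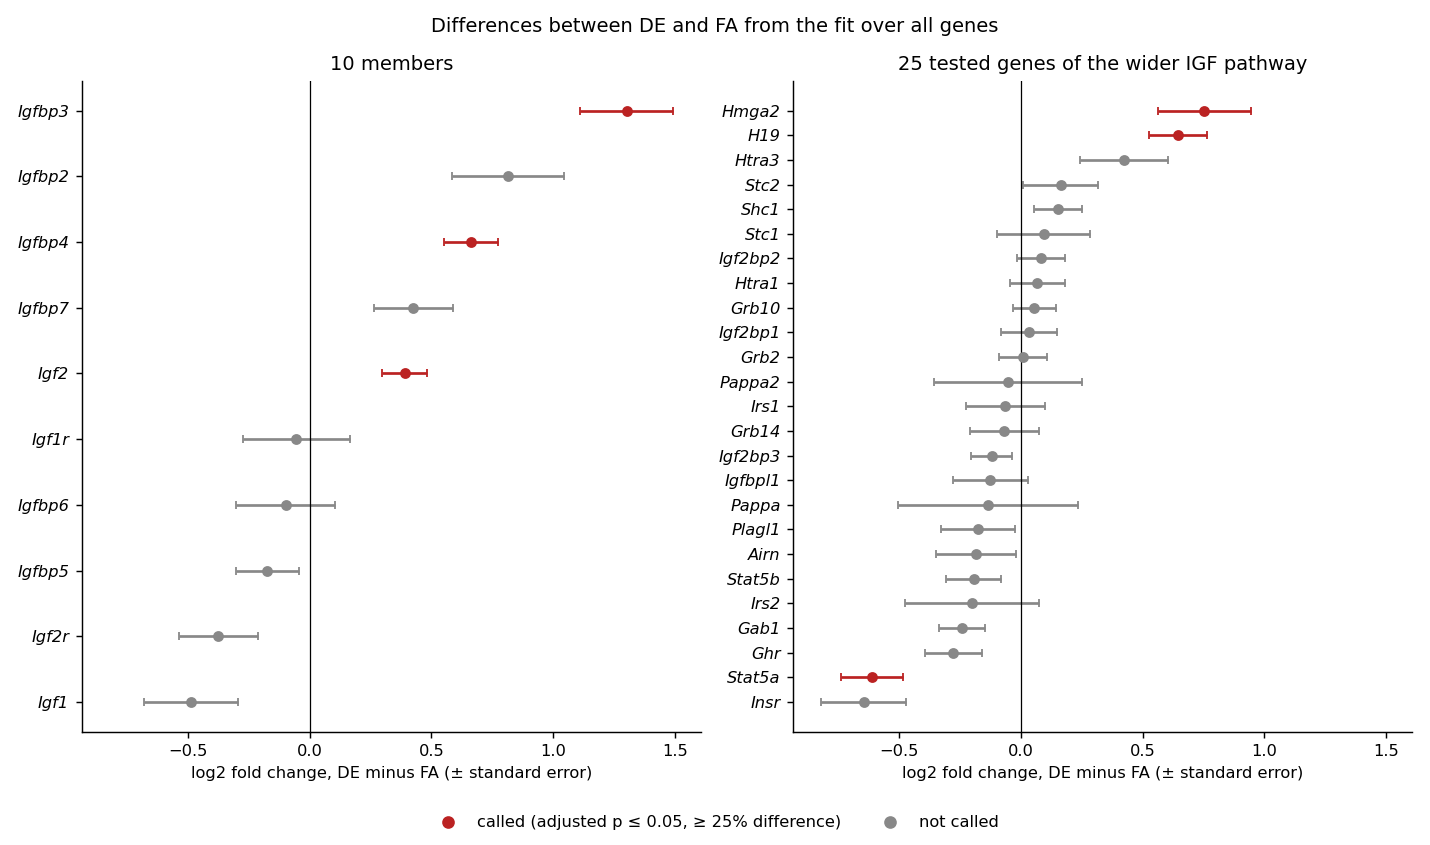
Log2 fold changes of DE over FA (horizontal axis) with standard errors are shown for the 10 IGF genes on the left and 25 tested genes of the wider IGF pathway on the right, with called genes in red. Igfbp3 at 1.30 is farthest from 0 among the 10, and Igf2, Igfbp3 and Igfbp4 are the 3 in red on the left.

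The make-up of the binding protein transcripts was described per kilobase and without a test, since it restates the values of the single genes. The sum over the 6 ran from 157.4 to 195.3 CPM per kilobase in FA and from 171.5 to 241.3 in DE libraries, which overlapped. Igfbp5 held 49.8% to 56.0% of that sum in FA and 35.1% to 42.4% in DE. Igfbp4 held 11.6% to 13.9% in FA and 16.4% to 17.47% in DE, and Igfbp3 held 6.24% to 6.70% and 8.88% to 15.6%. For these 3 genes the shares of the groups did not overlap. Igf2 amounted to 2.24 ± 0.287 times the summed binding proteins in FA and 2.46 ± 0.293 times in DE (SD, n = 4 each), a difference smaller than the spread between libraries. The ratio of Igf2r to Igf1r per kilobase was 17.0 ± 2.54 in FA and 13.6 ± 1.58 in DE (SD, n = 4 each).

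**Figure D4:**
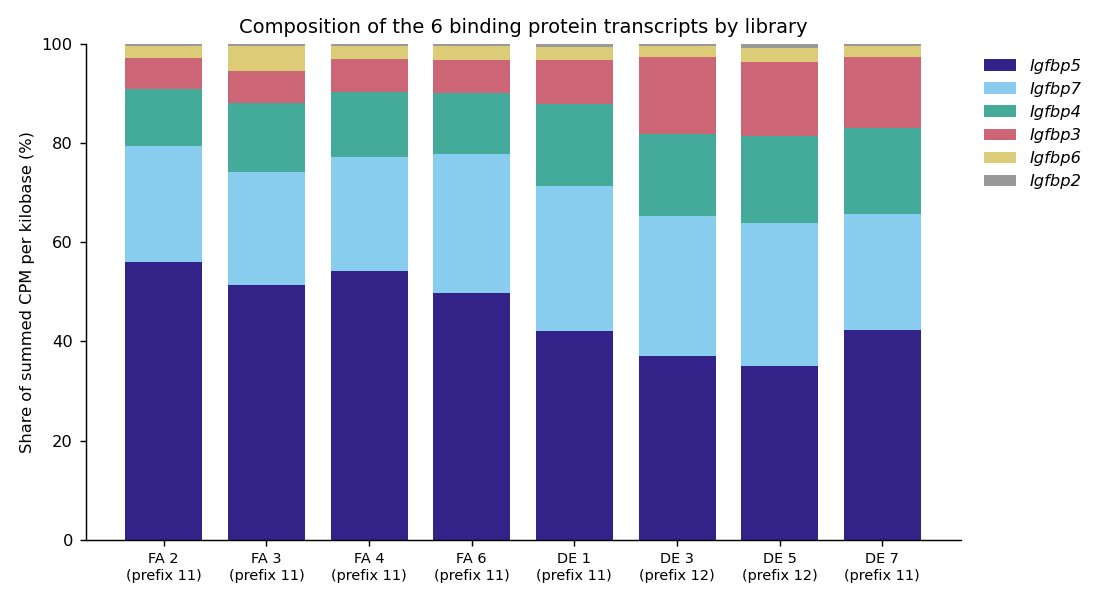
Stacked bars give the share of each of the 6 binding protein transcripts in their summed CPM per kilobase (vertical axis, percent) for each library, ordered by group and replicate, with the name prefix under each bar. The Igfbp5 share is 49.8% or more in each FA library and 42.4% or less in each DE library.

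The wider IGF pathway was a list of 29 genes written from general knowledge, covering relatives of the binding proteins, proteases that cleave them with their inhibitors, the insulin receptor family, adaptor proteins and regulators of the IGF genes. Of these, 25 were tested and 3 (12%) were called, beside 5.8% of all tested genes, with H19 and Hmga2 higher and Stat5a lower in DE. Igfbp1, Igfals, Insrr and Irs4 had too few counts to be tested. The median log2 fold change of the 25 was -0.06, with 11 above 0 and 14 below, and 7 of the 25 had an unadjusted p under 0.05, beside 25.6% of all tested genes. None of the 6 proteases and inhibitors was called (1 had an unadjusted p under 0.05). H19, Hmga2 and Stat5a belong to the 10 regulators. CPM values did not overlap between the groups for H19 and Hmga2, both higher in DE, nor for Insr, Gab1 and Stat5a, all lower in DE, beside 7.43% of all tested genes apart in the higher direction and 7.26% in the lower.

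H19, an imprinted noncoding RNA that lies 72621 bases from Igf2 and shares its enhancers, rose by 0.64 on the log2 scale. It measured 1672, 2211, 1844 and 2181 CPM in FA replicates 2, 3, 4 and 6, and 2845, 3549, 2917 and 3051 CPM in DE replicates 1, 3, 5 and 7. The groups did not overlap, as with Igf2. The standard error was 0.12 (adjusted p = 0.0139, edgeR quasi-likelihood, Benjamini-Hochberg adjusted), and the call was lost without FA replicate 4 (adjusted p = 0.0619), with the prefix as a term (0.0539), among prefix 11 libraries (0.0751) and with the 25% difference built into the test (0.128). The H19 log2 fold change was 0.60 without FA replicate 4, 0.58 with the prefix as a term and 0.57 among prefix 11 libraries. Hmga2, a chromatin protein that promotes Igf2 expression, went from 3.27 ± 0.318 to 5.48 ± 1.39 CPM (SD, n = 4 each), which is a log2 fold change of 0.75 that fell to 0.41 with the prefix as a term. Its adjusted p of 0.0442 in edgeR's quasi-likelihood test was lost in 6 of the 8 fits that left out 1 library, namely any of the FA libraries or DE replicate 3 or 5. The Hmga2 call was also lost with the prefix as a term (0.231), among prefix 11 libraries (0.298), with the 25% difference built into the test (0.217) and with limma-voom (0.0502). Stat5a, which carries the growth hormone signal to Igf1, averaged 16.0 ± 1.83 CPM in FA and was lower in DE at 10.5 ± 1.27 CPM (SD, n = 4 each), with a log2 fold change of -0.61 (adjusted p = 0.0226, edgeR quasi-likelihood test). That call was lost without FA replicate 2 (0.0837), FA replicate 4 (0.0734) or DE replicate 3 (0.0638), with the prefix as a term (0.0697), among prefix 11 libraries (0.0995) and with the 25% difference built into the test (0.190).

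Insr, the insulin receptor, measured 357.8, 273.1, 321.6 and 243.4 CPM in FA replicates 2, 3, 4 and 6, and 240.5, 141.4, 167.3 and 215.1 CPM in DE replicates 1, 3, 5 and 7. Every DE library was below every FA library, by a narrow margin between DE replicate 1 and FA replicate 6. Its log2 fold change of -0.65 with a standard error of 0.17 did not reach the threshold (adjusted p = 0.0518, edgeR quasi-likelihood, Benjamini-Hochberg adjusted), and it was called in 9 of the 21 alternatives. It was smaller with the prefix as a term, at -0.39 (adjusted p = 0.211), and among prefix 11 libraries alone, at -0.40 (adjusted p = 0.246). With 13746 exonic bases Insr belongs to the long genes described above. Under the length offsets its value was also smaller, at -0.47, but it was called (adjusted p = 0.0165, edgeR quasi-likelihood). Of the other abundant genes of the list, Grb10, an imprinted adaptor that damps insulin and IGF signalling, stood at 0.05, the adaptor Gab1 at -0.24 and the imprinted transcription factor Plagl1 at -0.18 on the log2 scale, and none of these passed (adjusted p = 0.731, 0.139 and 0.495, edgeR quasi-likelihood test).

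To place the called IGF genes among the rest, the 3 genes with the most similar course over the 8 libraries were found for each, out of 9133 tested genes averaging 10 CPM or more. The measure was the root-mean-square difference of log2 CPM after centring each gene on its own mean, so 0 would be the same course. For Igfbp3 these were Sparcl1 (0.165), which encodes a secreted matrix protein, Pfkl (0.184), a phosphofructokinase subunit of glycolysis, and E2f1 (0.231), a transcription factor of the cell cycle. For Igfbp4 they were H19 (0.0774), Hhex (0.0917), a homeobox factor, and Pmp22 (0.0939), a membrane protein of myelin. For Igf2 they were Pygl (0.0598), a glycogen phosphorylase, Sfxn1 (0.0615), a mitochondrial serine carrier, and Hsd17b12 (0.0760), an enzyme of fatty acid elongation. The measure includes the difference between the groups, so the choice itself fixes similar log2 fold changes, which were 1.02, 1.17 and 1.21 for the 3 beside Igfbp3, 0.64, 0.56 and 0.64 for the 3 beside Igfbp4, and 0.35, 0.37 and 0.45 for the 3 beside Igf2. Of these 9 values, those of Pygl (adjusted p = 0.0511) and Sfxn1 (adjusted p = 0.0587) did not pass edgeR's test, and the calls of Hhex, Pmp22, Hsd17b12 and Sparcl1 were lost in 8, 5, 5 and 2 of the 21 alternatives.

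**Figure D5:**
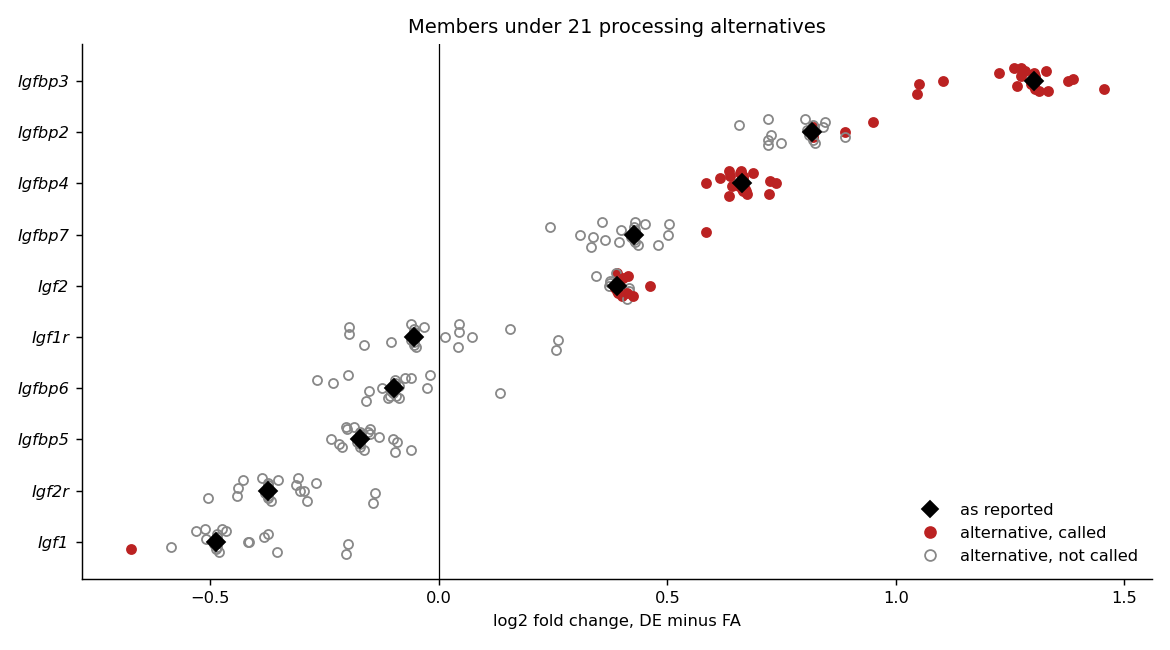
The log2 fold change of DE over FA (horizontal axis) is plotted for each of the 10 IGF genes as reported (black diamond) and under 21 alternatives (circles, red where called). All circles are red for Igfbp3, between 1.05 and 1.46, while Igf2 is called in 12 of 21 and the values of Igf1r fall on both sides of 0.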

How the data were processed

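RNA from NCMs of 4 FA and 4 DE male neonates was sequenced from stranded poly-A libraries. Alignment by the authors was to mm10 with Tophat. PCR duplicates were marked but stayed in, and featureCounts was used to count fragments. The authors deposited unnormalized counts, with genes named by Entrez number. The strand setting and the rule for reads with several alignments are not given in the sources used here, and retained duplicates are not independent molecules.

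Of 27179 genes, 25275 were matched to symbols on GRCm38.p6. Libraries held 17943024 to 39839737 counts, so precision is lowest for genes of few counts such as Igfbp2. Genes kept by filterByExpr (at least 10 counts) were compared between DE and FA by glmQLFit and glmQLFTest of edgeR 4.0.16 (R 4.3.3) with TMM factors and no covariate. P-values were adjusted by Benjamini-Hochberg over every gene tested. Calls needed an adjusted p of at most 0.05 and a fold difference of at least 1.25. CPM use the same factors, and centred log2 CPM a prior count of 2. Exonic lengths are from GENCODE. Library pairs within FA and within DE differed by a chi-square per gene of 5.42 (FA replicates 2 and 4) to 70.2 (DE replicates 1 and 5). The next lowest pair was at 17.3 (DE replicates 1 and 7), so FA replicates 2 and 4 were the most alike. No such pair held the same counts, but the measure cannot show whether libraries shared a litter.

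The IGF genes and the lists were chosen with earlier results of these data known. Named genes were the 10 IGF genes, pathway genes that were called or among the 5 most abundant, 3 genes of similar course for each called IGF gene, and markers that were called. Igf2os, Airn, Stat5b, Ghr and the markers that were not called were named after their values were seen.

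The alternatives included limma-voom (limma 3.58.1), DESeq2 1.42.0, the likelihood ratio test of edgeR, the 25% difference built into the test, 3 other scalings, 2 other filters, the name prefix as a term, prefix 11 libraries alone and each library left out. Length offsets, and the same genes without them, were added after the data were seen. The code was tested on simulated data.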

Additional observations from a re-analysis of the deposited data

Results flagged for a closer look

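Igfbp3 in FA replicate 6 was 40.6 CPM, apart from the other FA libraries, of which the nearest was at 33.0 CPM. The gap was 0.881 of the group's range, above Dixon's critical value for 4 samples. Igfbp7 in the same library was 65.9 CPM with the nearest FA library at 47.2 CPM, a gap of 0.834 of the range. These were 2 of 20 groups of values examined (10 genes in FA and in DE), and chance alone marks about 1 in 20. FA replicate 6 also had the highest FA sums of fibroblast (3707 CPM), cardiomyocyte (78095 CPM), endothelial (1663 CPM) and leukocyte markers (22.9 CPM). Its sums were not the highest in FA for smooth muscle and pericytes (914.5 CPM), the epicardium (193.8 CPM) and erythroid markers (956.1 CPM). Without this library the log2 fold change of Igfbp3 was 1.39 and its call held.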

How the results depend on the processing

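Igfbp3 kept its call in all 21 alternatives and Igfbp4 in 20, while Igf2 lost it in 9. Of the 10 IGF genes, 1 passed once the test itself required the 25% difference, and between 2 and 4 when 1 library was left out. Of the other pathway genes, 0 were called by edgeR's quasi-likelihood test with the 25% difference required, the prefix as a term or prefix 11 alone (4, 6 and 5 had an unadjusted p under 0.05, and DESeq2 called 4 in the fit of all libraries), and between 0 (without FA replicate 4, 5 at an unadjusted p under 0.05) and 4 when 1 library was left out, with 1 called without FA replicate 2 or DE replicate 3. Over all genes, DESeq2 called 1633, the likelihood ratio test 1603, the required difference 114, the prefix term 448, prefix 11 alone 260 and length offsets 1310. Leaving out 1 library gave 237 (without FA replicate 4) to 1168 calls (without DE replicate 1), and among these 249 calls when FA replicate 2 was out, 268 for DE replicate 3, 433 for FA replicate 3 and 526 for DE replicate 5. Of the calls, 61.8% were higher in DE, 78.7% when scaled by library totals alone, 38.6% with the 25% difference required and between 49.7% (without FA replicate 3) and 66.7% (without DE replicate 5) when 1 library was left out. The sign of Igf1r turned with library totals (0.0126), the prefix as a term (0.26), prefix 11 alone (0.26), length offsets (0.16) and each of 4 libraries left out (range -0.20 to 0.0727). That of Igfbp6 turned without FA replicate 3 (range -0.23 to 0.13), and that of Plagl1 with the prefix as a term (0.0492) and prefix 11 alone (0.0451). The cause of these shifts was not tested. No paired analysis was possible because the sources used here give nothing that pairs an FA library with a DE library. Low counts limit Igfbp2, with 377 in all.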

Other observations

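Between the DE libraries of the 2 name prefixes, 4 IGF genes had CPM values that were apart (Igf1, Igf1r, Igf2r and Igfbp6), as did 60.2% of all tested genes. Mean Igf1r was 182.6 CPM in the prefix 11 DE libraries and 110.997 CPM in the prefix 12 DE libraries, a log2 difference of -0.72 (standard error 0.22). Igf1 went from 61.0 to 39.1 CPM (-0.64, standard error 0.19) and Igf2r from 1276 to 891.5 CPM (-0.52, standard error 0.17). The adjusted p-values, 0.0988, 0.0902 and 0.112 in edgeR's quasi-likelihood test with the prefix as a term, did not pass, and none of the 10 IGF genes did (3 had an unadjusted p under 0.05). Over all tested genes 309 (2.06%) were called between the prefixes, 230 of them lower in prefix 12. Each prefix holds 2 DE libraries, and no FA library carries prefix 12.

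Several of the IGF genes are neighbours. Igfbp2 and Igfbp5 lie 5590 bases apart on chromosome 1, with log2 fold changes of 0.82 and -0.17. Igfbp3 lies 3539 bases from Igfbp1, which had too few counts to be tested.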
